A study of Mus musculus with 24 samples.

Results

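The response of wild-type macrophages to Pam3 was read from 12 of the 24 RNA sequencing libraries of the series, chosen by their titles: 6 titled WT_Pam3 and 6 titled WT_NoPrime. All were labelled as bone marrow-derived macrophages, which are primary cells grown out of marrow precursors in culture, from C57BL/6 mice with the genotype WT. The WT_NoPrime libraries, called media here, were labelled as untreated cells in media, and the WT_Pam3 libraries as Pam3 stimulated, where Pam3 is shorthand for Pam3CSK4, a synthetic lipopeptide. The other 12 libraries came from Ninj1 knockout (KO) macrophages, 6 in each condition, and entered the fit to estimate the spread and as a comparison at the end. The sources used here give neither dose and duration of the stimulation nor the age of the mice. Nothing in the labels ties a library to its own mouse or dish, so each p-value reflects only the variation among these libraries, some or all of which may be technical.

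Pam3CSK4 mimics the acylated N-terminus of bacterial lipoproteins and binds the heterodimer of Toll-like receptors TLR1 and TLR2 at the cell surface. The adaptors TIRAP and MyD88 recruit IRAK kinases and TRAF6, the IKK complex then releases NF-kB from its inhibitors, and MAP kinases activate AP-1 factors. In macrophages this programme is known for rapid transcription of cytokines, chemokines and feedback inhibitors, followed by secondary responses to the secreted factors and by changes in metabolism, uptake and lineage genes.

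Total counts ran from 31302011 to 40663152 reads per library and did not differ past an exact permutation test between the groups (two-sided p = 0.424, 924 permutations, 6 against 6). Fewer genes were detected with Pam3 (18130 ± 105, SD, n = 6) than in media (19610 ± 230), also after thinning to the smallest library (17900 ± 48.3 against 19296 ± 242). The share of mitochondrial transcripts was lower with Pam3 (0.435% ± 0.0505 against 0.628% ± 0.0175, exact permutation adjusted p = 0.00289 for this share and for the number of genes, from p = 0.00216, the smallest that 6 against 6 can give). That share is of raw counts. With the scaling used for the gene tests (TMM), none of the 10 tested mitochondrial transcripts passed, and their median log2 fold change was 0.0006. The first principal component held 92.1% of the variance and separated the conditions. Replicate numbers follow the order of each group's libraries in the series, as the labels give none. The second component held 2.85% and set WT_Pam3 replicate 5 apart from the other 11 libraries. In that library 30 genes lay at least 2-fold above and 212 at least 2-fold below all the other 5 WT_Pam3 libraries, against 0 to 3 genes for any other library. The 30 had a median transcript length of 846.5 nucleotides and the 212 one of 8255 (all tested genes 3062.5), and its top 10 genes took 12.2% of reads against 9.49% to 9.6% in the other 5. What set it apart was not tested. Results that move with it are given with and without it. Xist, the RNA of the inactive X chromosome, had 6443 to 32151 counts in each WT library while 4 Y-linked genes together had at most 2, which goes against the male label of these libraries.

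Macrophage markers were abundant. All 31 macrophage identity genes passed the low-count filter and together took 8.88% to 9.26% of reads in media and 5.68% to 6.49% with Pam3. Shares of reads, here and below, are of raw counts without TMM scaling. The TMM factors were 1.17 to 1.19 in media and 0.813 to 0.845 with Pam3. Against media, raw shares with Pam3 therefore read lower than TMM-adjusted values do. Csf1r, the receptor for the macrophage growth factor, stood at 2948, 3046 and 3149 CPM in media and 1957, 1995 and 2023 CPM with Pam3, given here and below as the lowest, median and highest CPM (the usual short name of read counts scaled to library size, here TMM-adjusted) of the 6 libraries. Adgre1, which encodes the F4/80 antigen, stood at 1539, 1701 and 1783 CPM in media and 4665, 6280.3 and 6449 CPM with Pam3, and the lysozyme gene Lyz2 at 18600.3, 19223 and 19956 CPM in media and 20749, 21018 and 25235 CPM with Pam3. Of the markers of other cells some were at or near 0 and others were expressed. Ly6g of neutrophils had 4 counts in all media libraries together and 0 with Pam3, Cd3e of T cells 11 and 1, and the mast cell receptor gene Fcer1a 1 and 1. Against these, Cd4 had a median of 38.8 CPM and Mpo one of 4.85 CPM in media, and Pdgfrb one of 84.9 CPM with Pam3. Summed marker shares of reads were 0.0276% to 0.0297% in media and 0.0600% to 0.0624% with Pam3 for 18 granulocyte genes, of which Lcn2 and Csf3r, both also transcribed by macrophages, took the most. They were 0.00391% to 0.00467% and 0.0177% to 0.0208% for 13 dendritic cell genes, 0.0341% to 0.0376% and 0.00410% to 0.00520% for 22 lymphocyte genes, and 0.00820% to 0.00999% and 0.0125% to 0.0178% for 18 stromal and endothelial genes. In these bulk samples fewer cells of a type and less RNA per cell cannot be told apart.

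Of 14435 genes tested, 5859 (40.6%) were higher and 6376 (44.2%) lower with Pam3 (edgeR quasi-likelihood test, Benjamini-Hochberg adjusted p under 0.05), and 2200 (15.2%) did not pass. At least 2-fold changes counted 2621 genes higher (18.2%) and 3628 lower (25.1%), and at least 4-fold changes 1097 (7.6%) and 1586 (11%). The order turned at the largest sizes: 124 genes were at least 64-fold higher and 46 at least 64-fold lower. All 6 Pam3 libraries lay above all 6 media libraries for 4686 genes (32.5%) and below them for 5250 (36.4%). Without replicate 5 of WT_Pam3, 5974 genes were higher and 6646 lower, and 5726 and 6297 of the genes called with it kept their call. The main scaling (TMM) put the median of all tested genes at a log2 fold change of -0.05. Scaling by library size only moved every gene down by a median of 0.52 and split the calls into 3583 higher and 9057 lower, and upper-quartile scaling moved them by -0.19 and split them into 4954 and 7369, so small rises are relative to the rest of the transcriptome. Genes whose direction turned with scaling are marked where they are named. Every count of list members below stands against 40.6% higher and 44.2% lower over all tested genes. Counts of at least 2-fold changes stand against 18.2% higher and 25.1% lower.

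**Figure D1:**
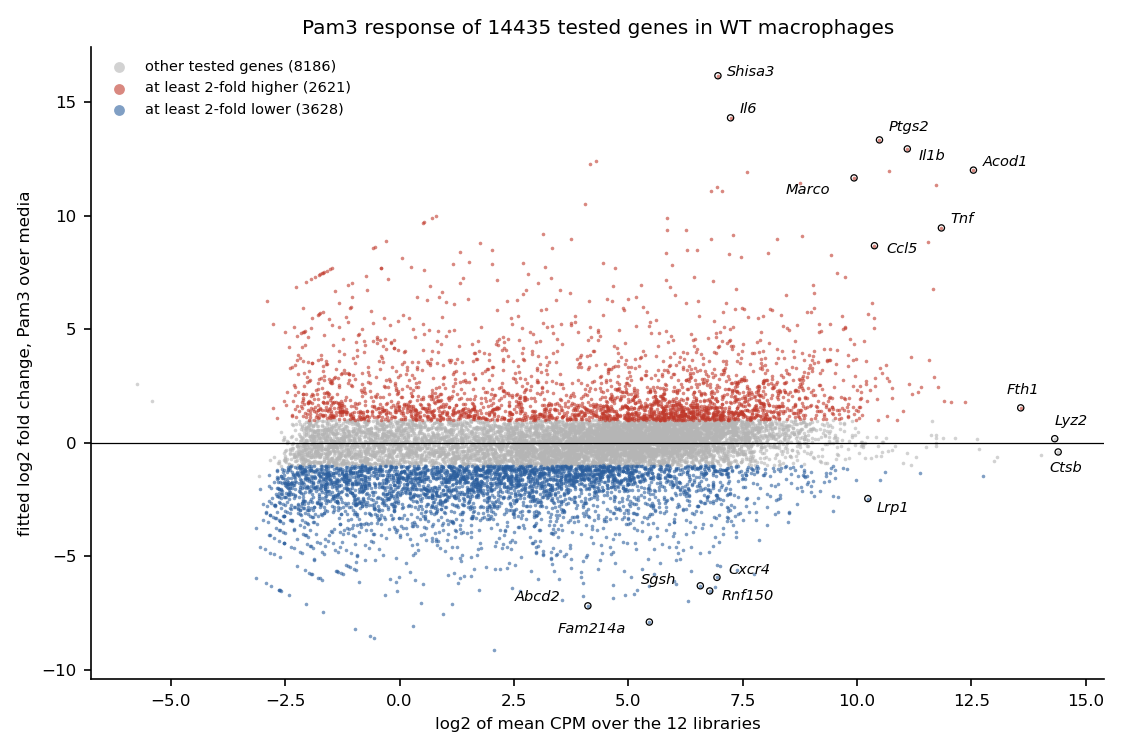
Fitted log2 fold change (Pam3 over media, vertical axis) against the log2 of the mean CPM over the 12 WT libraries (horizontal axis), 1 point per tested gene, with genes at least 2-fold higher in red and at least 2-fold lower in blue. Circled points carry their gene's name, and among them Fam214a is lowest at -7.89, Il6, which rests on 3 counts in media, lies at 14.3, and Shisa3, with no counts in media, lies above it.

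The receptors for the ligand rose. Tlr2, the shared subunit, stood at 77.8, 86.1 and 92.7 CPM in media and 947, 973 and 1028 CPM with Pam3 (log2 fold change 3.52, SE 0.0451, adjusted p = 4.93e-30), and its partner Tlr1 at 70.4, 72.4 and 76.6 CPM in media and 331, 396 and 408 CPM with Pam3 (log2 fold change 2.41, SE 0.0463, adjusted p = 3.27e-26). Every Pam3 library lay above every media library for both. Tlr6, the alternative partner for diacylated lipopeptides, rose by 1.57 on the log2 scale, the co-receptor Cd14 by 3.43, and the cytosolic peptidoglycan sensor Nod2 with its kinase Ripk2 by 4.56 and 4.11. Among the members that fell, Tlr4, for lipopolysaccharide, went from a median of 161 to 71.1 CPM (log2 -1.32), Tlr9, for DNA, from 86.7 to 16.4 CPM (-2.52), and Tlr13, for bacterial ribosomal RNA, from 465 to 127 CPM (-1.91). Flagellin's receptor Tlr5 was at 0.839 CPM (median) in media and had 3 counts in all Pam3 libraries together, a ratio of 51.3 (95% exact Poisson interval 17.5 to 249, counting error only). Of 19 receptors and co-receptors tested, 10 rose and 7 fell (all genes 40.6% and 44.2%), against 9 and 10 with library size only, and the median log2 fold change of 0.21 became -0.31.

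Downstream, 23 of 28 adaptors and kinases rose and 4 fell (19 and 9 with library size only, median 1.04). Myd88, the common adaptor, rose by 2.42, Tirap, which bridges it to the receptor, by 1.27, and the kinase gene Irak2 from 48.8 to 569 CPM (3.49). Irak3, which lacks kinase activity and restrains the pathway, stood at 31.3, 33.3 and 34.3 CPM in media and 551, 576 and 599.6 CPM with Pam3 (log2 4.12), and Traf1, an adaptor of the TNF receptor family, at 9.08, 9.63 and 9.92 CPM in media and 499.7, 536 and 686 CPM with Pam3 (5.86). The central ubiquitin ligase gene Traf6 was near level, at 0.31 with overlapping groups and at -0.22 with library size only, and Irak4, the first kinase of the complex, fell by 0.73. Tab1, an activator of the kinase TAK1, fell by 1.52, and the ubiquitin ligase gene Peli2 fell most, from 56.5 to 2.8 CPM (-4.38).

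All 11 genes of NF-kB subunits and inhibitors rose, 10 of them at least 2-fold (all genes 18.2%), with a median of 3.13. The inhibitor gene Nfkbia stood at 48.2, 50.7 and 53.3 CPM in media and 1505, 1588 and 1803 CPM with Pam3 (log2 fold change 5.0, SE 0.0516, adjusted p = 9.55e-32). Nfkbiz, an atypical inhibitor needed for Il6 transcription, stood at 9.4, 11 and 11.5 CPM in media and 797, 1097 and 1125 CPM with Pam3 (log2 fold change 6.61, SE 0.0907, adjusted p = 2.04e-29). No library of one condition overlapped with the other for either gene. Among the subunits, Nfkb2 rose by 4.12, Relb by 3.13, Nfkb1 by 3.08, Rel by 2.23 and Rela by 1.67.

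Of 28 feedback genes, 22 rose and 5 fell (median 2.03). Tnfaip3, which encodes the ubiquitin-editing enzyme A20, stood at 48.6, 50.7 and 52 CPM in media and 1252, 1720.4 and 1820.0 CPM with Pam3 (log2 5.03), and Socs3, an inhibitor of cytokine receptor signalling, at 7.99, 8.45 and 9.56 CPM in media and 1334, 1514 and 1708 CPM with Pam3 (7.47). Both sets of libraries were fully apart. Tnip3, an A20-binding protein, rose by 5.75, the MAP kinase phosphatase genes Dusp2 and Dusp1 by 5.56 and 2.9, the ribonuclease gene Zc3h12a by 3.99 and Zfp36, which encodes the mRNA-destabilizing protein tristetraprolin, by 2.53. Its paralogs went the other way: Zfp36l1 fell from 116 to 9.96 CPM (-3.49) and Zfp36l2 from 228 to 40.9 CPM (-2.53). Tsc22d3, the glucocorticoid-induced leucine zipper gene, fell by 3.56.

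Immediate early factors split, with 17 of 27 higher and 10 lower (median 0.93). Maff, a small Maf factor, rose from 1.34 to 131 CPM (6.51), Ets2 from 22.8 to 829.6 CPM (5.17), and the AP-1 genes Batf and Junb by 4.64 and 3.05. The classical members Fos and Jun were lower, Fos at 27.5, 29.5 and 34 CPM in media and 11, 12.9 and 14.2 CPM with Pam3 (-1.25) and Jun at 190.4, 207 and 218 CPM in media and 89.2, 96.8 and 108 CPM with Pam3 (-1.08), and so were Egr1 (-0.83) and Egr3 (-1.89). Atf3, a stress-inducible repressor, was near level at 0.14 and at -0.38 with library size only.

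Cytokine genes had the second highest median of the lists, after the chemokines. Of 24 tested, 23 rose, all at least 2-fold, and 1 fell, with a median log2 fold change of 5.65, or 5.01 with Csf2, which had no counts in media, at its bound. Il6, which drives the acute phase response, had 3 counts in all media libraries together and stood at 268, 302 and 327 CPM with Pam3, a ratio of 26144 (95% exact Poisson interval 8946 to 126775). Il1b, the secreted fever cytokine, stood at 0.397, 0.502 and 0.829 CPM in media and 3963, 4262 and 5142 CPM with Pam3 (log2 fold change 12.93, SE 0.23, adjusted p = 5.75e-27), and Tnf, the cytokine of early inflammation, at 9.05, 10.3 and 12.4 CPM in media and 6405, 7574 and 7871 CPM with Pam3 (log2 fold change 9.45, SE 0.0959, adjusted p = 7.30e-32). Every Pam3 library lay above every media library for these genes. The granulocyte growth factor gene Csf3 had 1 count in media and 32.2, 40.6 and 46.3 CPM with Pam3, a ratio of 10238 (interval 1837 to 404370). Il1a, an alarmin, rose from 1.21 to 622 CPM (8.97), Il12b, the shared chain of IL-12 and IL-23, from 0.113 to 118 CPM (9.88), and Il18 from 5.31 to 69.6 CPM (3.72). The receptor antagonist gene Il1rn went from 18.1 to 630.4 CPM (5.14), and the anti-inflammatory Il10 from 2.9 to 9.49 CPM (1.7). The member that fell was Tnfsf13b, the B cell survival factor BAFF, from 2.51 to 0.226 CPM (-3.37).

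Among 23 chemokines 21 rose and 1 fell, with a median of 5.87. The neutrophil attractants Cxcl2, Cxcl1 and Cxcl3 led. Cxcl2 stood at 0.606, 0.829 and 1.04 CPM in media and 2844, 3393 and 3610.0 CPM with Pam3 (log2 fold change 11.97, SE 0.16, adjusted p = 1.19e-29), Cxcl1 rose from 0.30 to 863 CPM (11.43) and Cxcl3 from 0.0998 to 255 CPM (11.26). Of the monocyte and T cell attractants, Ccl3 stood at 54.4, 60.6 and 63.9 CPM in media and 5495, 6416 and 7318 CPM with Pam3 (6.75) and Ccl5 at 5.42, 6.67 and 7.53 CPM in media and 2191, 2495 and 3766 CPM with Pam3 (8.67). The highest value of both belonged to WT_Pam3 replicate 5. Ccl4, Ccl7, Ccl2 and the interferon-inducible Cxcl10 rose by 6.14, 6.76, 5.11 and 6.51. Cxcl14, a homeostatic chemokine, was the member that fell (-1.25, from 1.05 to 0.415 CPM).

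The upstream sequences of strongly induced genes are shown to let their known types of site be seen in place. RefSeq promoters on build GRCm38.p6 were matched to 9698 of 12109 tested protein-coding genes (80.1%) and the 250 bases before each start were searched on both strands for GGG and TTTCC with any 2 bases between them, a form of the NF-kB site, and for TTTC and TTTC with any 2 bases between them, a form of the interferon-stimulated response element (ISRE). The NF-kB form was in 1.4% and the ISRE form in 3.04% of all 27025 promoters of this length. Of the genes at least 4-fold higher 77.8% had a promoter, and of those at least 4-fold lower 78.5%. No comparison of shares between called genes is drawn. Among the 740 promoters of genes at least 4-fold higher, 25 held the NF-kB form and 55 the ISRE form. The promoters below were picked because they hold a form and do not stand for induced genes at large. Shown are Il6, Cxcl2 and the scavenger receptor gene Marco, which are among the largest rises and hold the NF-kB form, and Ifit1 and Isg15, the largest rises of the interferon list, which hold the ISRE form, with overlapping matches in Isg15. Capitals mark the matched letters, every sequence reads 5′ to 3′ on the gene's strand and ends at the base before the annotated start (the Isg15 matches lie on the opposite strand), and a match is a description of the letters, not of binding.
Il6 promoter, NF-kB, chr5:30012864-30013113, plus strand: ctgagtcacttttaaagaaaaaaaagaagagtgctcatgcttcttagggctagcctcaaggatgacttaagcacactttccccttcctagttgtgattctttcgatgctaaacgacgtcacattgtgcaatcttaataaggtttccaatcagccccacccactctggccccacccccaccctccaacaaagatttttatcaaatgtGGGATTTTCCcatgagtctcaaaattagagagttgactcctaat
Cxcl2 promoter, NF-kB, chr5:90903649-90903898, plus strand: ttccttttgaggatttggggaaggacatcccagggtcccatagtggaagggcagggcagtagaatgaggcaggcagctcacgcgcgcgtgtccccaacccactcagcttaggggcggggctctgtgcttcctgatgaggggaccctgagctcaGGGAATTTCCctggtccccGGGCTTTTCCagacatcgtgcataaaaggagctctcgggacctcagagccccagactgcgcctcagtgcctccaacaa
Marco promoter, NF-kB, chr1:120505025-120505274, minus strand: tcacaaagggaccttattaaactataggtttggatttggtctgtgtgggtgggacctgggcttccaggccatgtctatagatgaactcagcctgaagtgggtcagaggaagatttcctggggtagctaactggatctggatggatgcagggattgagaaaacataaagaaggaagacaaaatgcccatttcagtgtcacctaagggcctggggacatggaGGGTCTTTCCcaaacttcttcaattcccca
Ifit1 promoter, ISRE, chr19:34640639-34640888, plus strand: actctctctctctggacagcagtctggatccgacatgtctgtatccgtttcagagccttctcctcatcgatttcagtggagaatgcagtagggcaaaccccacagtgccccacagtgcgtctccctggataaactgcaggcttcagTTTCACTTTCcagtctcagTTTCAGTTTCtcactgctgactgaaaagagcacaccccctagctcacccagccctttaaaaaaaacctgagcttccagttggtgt
Isg15 promoter, ISRE, chr4:156200819-156201068, minus strand: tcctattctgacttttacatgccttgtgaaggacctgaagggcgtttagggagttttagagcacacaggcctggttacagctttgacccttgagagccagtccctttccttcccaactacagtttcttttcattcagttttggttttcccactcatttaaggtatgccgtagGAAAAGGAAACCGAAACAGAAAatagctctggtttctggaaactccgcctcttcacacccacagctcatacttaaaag
The match nearest to the start began 44 bases before it in Il6, 78 in Cxcl2, 30 in Marco, 85 in Ifit1 and 66 in Isg15.

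Interferon-stimulated genes rose nearly as a block: 44 of 45 were higher, 43 of them at least 2-fold (all genes 40.6% and 18.2%), and 1 was lower (median 2.67, 2.15 with library size only). Isg15, a ubiquitin-like modifier, stood at 18.7, 21.1 and 22.6 CPM in media and 555, 653 and 962 CPM with Pam3 (log2 fold change 5.04, SE 0.214, adjusted p = 2.93e-18), and Ifit1, which binds foreign RNA ends, at 32, 38.3 and 43.3 CPM in media and 1066, 1109 and 1206 CPM with Pam3 (log2 fold change 4.88, SE 0.18, adjusted p = 1.06e-19). No media library reached the lowest Pam3 library for either gene. Mx1 and Rsad2, antiviral effectors, rose from 33.5 to 765 CPM (4.47) and from 91.6 to 1907 CPM (4.34). Irf7, the amplifier of type I interferon, rose from 150.1 to 731 CPM (2.34). Ifitm6 was the member that fell (-0.56). The 15 guanylate-binding proteins and immunity-related GTPases, which attack vacuoles of intracellular microbes, had 14 higher and 1 lower (median 3.43). Gbp5 stood at 7.08, 8.49 and 9.3 CPM in media and 839.7, 1057 and 1130.1 CPM with Pam3 (6.94) and Gbp2 at 25.7, 33.2 and 39.3 CPM in media and 1564, 1584 and 1660.2 CPM with Pam3 (5.59), and Gbp8 was the member that fell (-1.61). Reads of these close paralogs were counted only where unique, so single values are uncertain.

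Interferon regulatory factors and STATs did not move as a block, with 15 of 23 higher and 6 lower (13 and 9 with library size only, median 0.85). Irf1 rose from 85.2 to 927 CPM (3.43) and the kinase gene Jak2 from 46.5 to 662 CPM (3.74). Irf8, a lineage factor of macrophages, stood at 371, 374 and 383 CPM in media and 87.6, 92.2 and 106 CPM with Pam3 (-1.98), and Irf4, linked to alternative activation, fell from 9.3 to 1.49 CPM (-2.63). Stat6, the transducer of IL-4, fell by 1.02, and Stat3, that of IL-6 and IL-10, rose by 0.97.

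Antimicrobial metabolism included the gene with the largest gain in CPM of all. Acod1, which makes itaconate, stood at 1.81, 2.95 and 4.23 CPM in media and 11366, 12056 and 12432 CPM with Pam3 (log2 fold change 12, SE 0.383, adjusted p = 4.05e-21). Nos2, the inducible nitric oxide synthase, stood at 0.0218, 0.0844 and 0.188 CPM in media and 329.9, 377 and 457 CPM with Pam3 (log2 fold change 11.93, SE 0.184, adjusted p = 2.37e-28). The arginine transporter gene Slc7a2 rose from 8.53 to 247 CPM (4.83) and Gch1, which makes the synthase's cofactor, from 14.7 to 219 CPM (3.96), while Arg1, the competing arginase, stood at 0.857 CPM in media and 0.283 CPM with Pam3 (medians, log2 -1.61). In the nitric oxide, arginine and itaconate list 12 of 18 rose and 5 fell (9 and 8 with library size only).

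Arachidonate genes moved both ways. Ptgs2, the inducible cyclooxygenase, stood at 0.0991, 0.298 and 0.392 CPM in media and 1567, 3052 and 3400.1 CPM with Pam3 (log2 fold change 13.33, SE 0.217, adjusted p = 8.40e-28), with its lowest Pam3 value in replicate 5. Ptges, the prostaglandin E synthase, rose from 0.895 to 289 CPM (8.31) and Pla2g4a, the phospholipase that releases arachidonate, from 11 to 129.8 CPM (3.54). The constitutive cyclooxygenase gene Ptgs1 fell from 40.7 to 3.98 CPM (-3.35), the prostaglandin-degrading Hpgd from 38.8 to 0.772 CPM (-5.56), and the leukotriene genes Alox5ap and Alox5 by 1.33 and 1.83. Of the 21 genes, 8 rose and 13 fell, 11 of them at least 2-fold (all genes 25.1%), with a median of -1.33.

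Among 27 antimicrobial and acute phase genes 21 rose and 2 fell (21 and 5 without replicate 5, 19 and 8 with library size only, median 1.96). The acute phase gene Saa3 stood at 1.24, 2.45 and 4.26 CPM in media and 5428, 5969 and 10879.5 CPM with Pam3 (11.34), with its highest value in replicate 5, and Clec4e, the lectin receptor Mincle, at 11.7, 13 and 14.8 CPM in media and 5539.9, 6015 and 6313 CPM with Pam3 (8.84). Cybb, the catalytic subunit of the phagocyte oxidase, rose from 1089.8 to 6288 CPM (2.48), the mitochondrial superoxide dismutase gene Sod2 from 45.9 to 2286 CPM (5.69) and the siderophore-binding Lcn2 from 5.37 to 113 CPM (4.51). Of 16 granulocyte markers tested, which include Lcn2, 3 rose and 12 fell while their summed share of reads went from at most 0.0297% to at least 0.0600%; the part of such cells in these values was not tested. Lyz2 and the pore-forming Mpeg1 changed little (0.18 and 0.16, but -0.34 and -0.37 with library size only).

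Iron genes moved both ways. The exporter ferroportin, Slc40a1, stood at 231, 256 and 261 CPM in media and 14.3, 15.4 and 16.8 CPM with Pam3 (log2 fold change -4.02, SE 0.0585, adjusted p = 7.00e-29), with no overlap. The ferritin heavy chain gene Fth1 stood at 6089.6, 6274 and 6478 CPM in media and 15745, 16409.6 and 27605 CPM with Pam3 (1.53), with the highest value in replicate 5. The oxidase gene Cp rose from 9.93 to 495 CPM (5.56) and the importer gene Slc39a14 from 12.7 to 253 CPM (4.24), while the transferrin receptor gene Tfrc fell by 0.51 and Hfe and the reductase gene Steap3 by 2.67 and 2.84. Of 18 tested, 10 rose and 7 fell, against 7 and 10 with library size only.

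Inflammasome genes moved both ways (12 of 23 higher, 7 lower, all genes 40.6% and 44.2%, and 10 and 12 with library size only). Nlrp1b, the sensor of bacterial proteases, stood at 40.1, 48.5 and 67.9 CPM in media and 1.11, 1.32 and 1.41 CPM with Pam3 (log2 fold change -5.28, SE 0.123, adjusted p = 2.65e-24). P2rx7, the ATP-gated channel upstream of NLRP3, stood at 144, 151 and 155 CPM in media and 12, 13.4 and 15 CPM with Pam3 (-3.47). Both were lower in every Pam3 library than in any media library, whereas Mefv, the pyrin sensor, rose from 3.6 to 111 CPM (4.9) and Nlrp3 and Casp4 by 4.58 and 3.9. Among complement and coagulation genes (14 of 26 higher, 9 lower, and 12 and 13 with library size only) C3 stood at 31, 35.2 and 40.4 CPM in media and 1065, 1362 and 1476 CPM with Pam3 (5.24) and Cfb rose by 6.54. The plasminogen activator inhibitor gene Serpinb2 rose from 0.789 to 71.7 CPM (6.42), while the anticoagulant Thbd and the protease gene Plau fell by 1.91 and 1.43.

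Of 32 apoptosis and necroptosis genes 21 rose and 7 fell (16 and 13 with library size only). The caspase-8 inhibitor gene Cflar rose from 84.4 to 1518 CPM (4.09), Birc3 from 43.9 to 435 CPM (3.28) and the TNF receptor gene Tnfrsf1b stood at 774, 785 and 795 CPM in media and 5169, 5889.7 and 6147 CPM with Pam3 (2.88). Members that fell included Bmf from 31.6 to 0.813 CPM (-5.21), Bcl2l11 from 213 to 76.3 CPM (-1.52) and Bbc3 from 21.5 to 7.33 CPM (-1.52), which promote apoptosis.

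For T cell contact, 13 of 18 costimulatory and checkpoint genes rose and 4 fell (11 and 6 with library size only). Cd40 stood at 10, 10.9 and 11.3 CPM in media and 1534, 1634 and 2041 CPM with Pam3 (7.29), and the inhibitory ligand gene Cd274, or PD-L1, at 69.8, 73.7 and 74.2 CPM in media and 957, 1334 and 1439 CPM with Pam3 (4.14). Cd69 rose from 1.15 to 352 CPM (8.16), Cd86 by 0.65, and Cd80 did not pass (0.16, adjusted p = 0.0551, but 0.20 and 0.014 without replicate 5, and -0.36 with library size only). Havcr2 (TIM-3) and Cd200r1, inhibitory receptors, fell from 14.4 to 0.619 CPM (-4.39) and from 133 to 41.4 CPM (-1.73). All 20 class I presentation genes rose, 14 at least 2-fold (median 1.63, with 18 higher and 2 lower by library size only): the peptide transporter gene Tap1 from 94.3 to 578 CPM (2.63), the immunoproteasome subunit Psmb8 by 2.03 and its activator Psme2 by 3.78, and the heavy chain H2-K1 by 1.01. Of the class II genes 7 of 14 were higher and 4 lower (6 and 7 with library size only), with the invariant chain Cd74 at 1.52 and H2-Ab1 at 1.49.

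**Figure D2:**
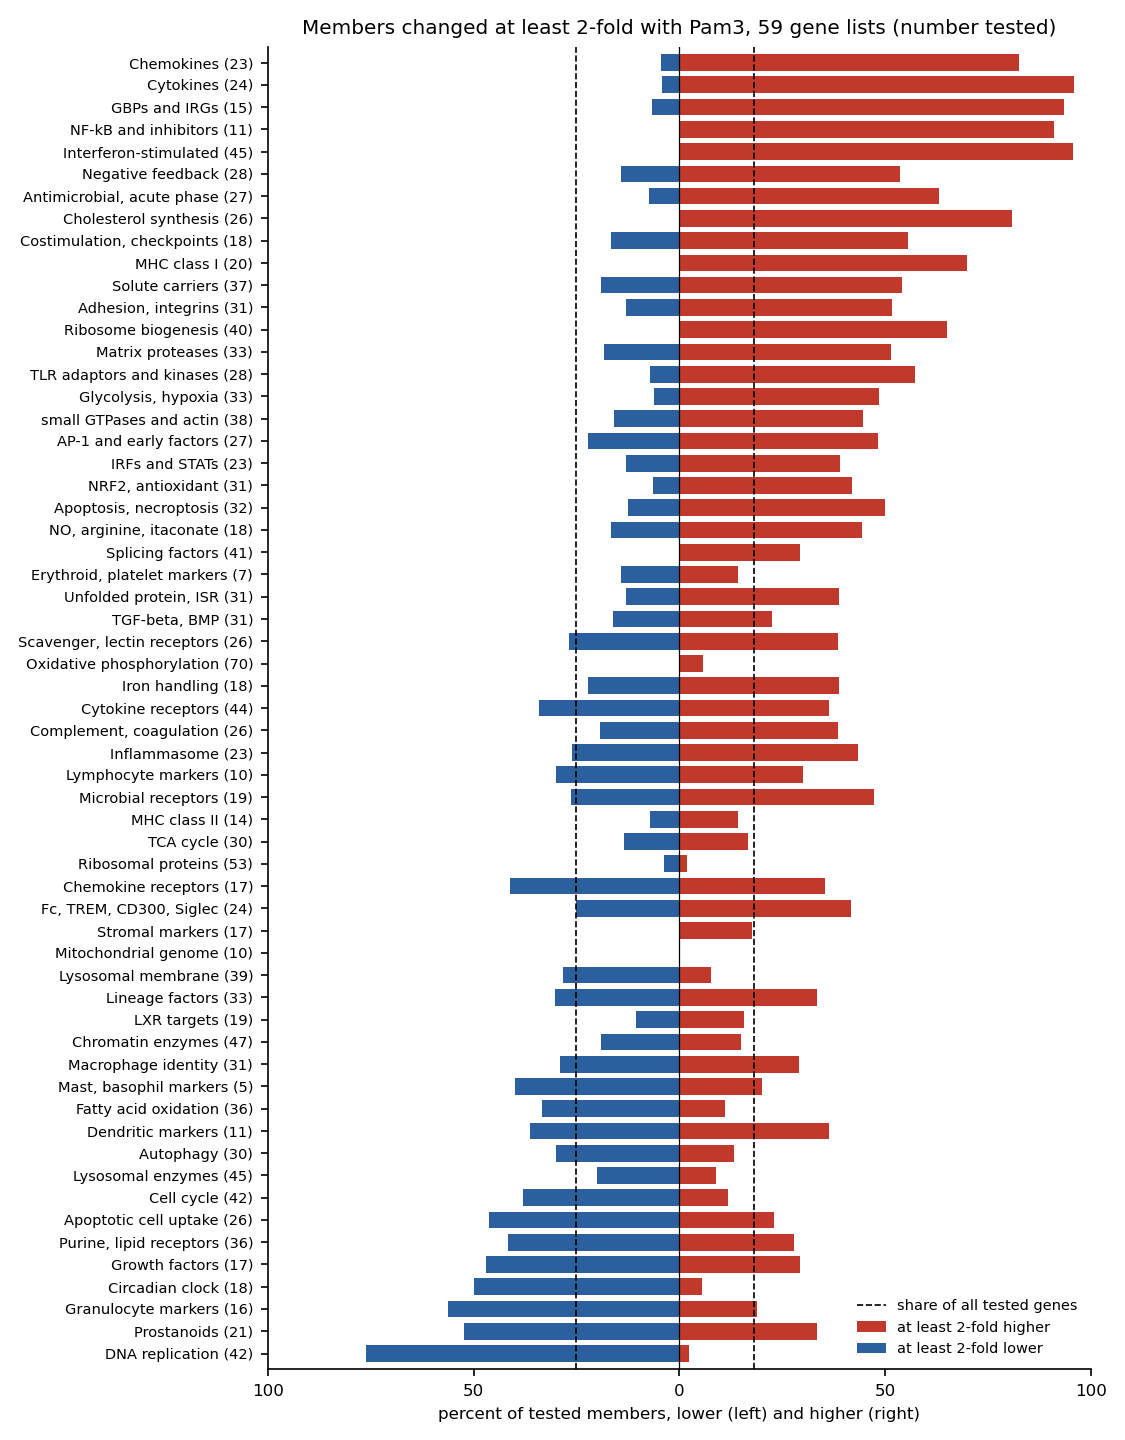
Percent of tested members of each gene list that were at least 2-fold higher (right, red) or at least 2-fold lower (left, blue) with Pam3, ordered by the list's median log2 fold change, with the number tested in brackets. Dashed lines mark the shares of all 14435 tested genes, 18.2% higher and 25.1% lower, and the top and bottom lists are chemokines and DNA replication.

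Genes of glucose uptake and glycolysis mostly rose. Of 33 glycolysis and hypoxia genes 25 rose and 6 fell (19 and 7 with library size only, median 0.97). The glucose transporter genes Slc2a1 and Slc2a6 rose from 28.9 to 235 CPM (3.04) and from 48.8 to 1664 CPM (5.09), the lactate exporter Slc16a3 from 25.6 to 249.6 CPM (3.3), Hk2 by 1.66 and Hif1a, the hypoxia factor, by 1.62. Another glucose transporter gene, Slc2a3, fell from a mean of 20.3 to 5.52 CPM (-1.88). Vegfa, a hypoxia-inducible growth factor, went down from 81.9 to 9.4 CPM (-3.15). In the TCA cycle list 16 of 30 rose and 8 fell (9 and 18 with library size only), with isocitrate dehydrogenases Idh1 and Idh2 at -1.34 and -1.98 and citrate synthase, Cs, at 0.97. Idh2 stood at 67.2, 68.9 and 73.7 CPM in media and 15.8, 16.8 and 23 CPM with Pam3.

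Nuclear genes of oxidative phosphorylation depended on scaling and on replicate 5. With TMM 42 of 70 rose and 7 fell (median 0.31), without replicate 5 it was 37 and 16 (median 0.13), and with library size only 8 and 32 (median -0.21). At least 2-fold changes were 4 rises of 70, which included Cox5a (1.32) and Atp5b (1.2), and 0 falls. Both shares were below those of all genes (18.2% and 25.1%). None of the 10 tested transcripts of the mitochondrial genome passed the test with TMM, while 2 were higher without replicate 5 and 9 were lower with library size only. Cytosolic ribosomal proteins behaved alike, with 15 of 53 higher and 8 lower, 14 and 14 without replicate 5 (median 0.13 with it and -0.01 without), and 2 and 35 with library size only.

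Fatty acid oxidation genes fell more often than they rose (22 and 12 of 36, all genes 44.2% and 40.6%, or 28 and 6 with library size only, median -0.41). Acox3, a peroxisomal oxidase, stood at 208, 217 and 234 CPM in media and 20.9, 21.7 and 24.4 CPM with Pam3 (-3.32), Hadh and Acaa2, enzymes of the mitochondrial cycle, fell by 2.34 and 2.0, and Cpt1a, which admits fatty acids to mitochondria, fell by 1.26. Acsl1, which activates fatty acids, rose from 44.4 to 754 CPM (4.05).

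Cholesterol synthesis rose along the pathway. Of 26 genes, 21 rose, all at least 2-fold (all genes 18.2%), and 3 fell, with a median of 1.89 (1.36 with library size only, where 21 rose and 5 fell). Sqle, the squalene epoxidase, stood at 68.5, 71.7 and 76.2 CPM in media and 277, 283 and 296 CPM with Pam3 (log2 fold change 1.98, SE 0.046, adjusted p = 2.39e-24), and Cyp51, the lanosterol demethylase, at 65, 67.5 and 72.4 CPM in media and 401, 419 and 441 CPM with Pam3 (log2 fold change 2.63, SE 0.0492, adjusted p = 1.86e-26). No library of one condition reached the range of the other. Hsd17b7 and Hmgcs1, further enzymes of the pathway, rose by 3.75 and 2.01, and the regulator Srebf2 by 1.55. The sterol transporter gene Abcg1 fell from 272 to 93.4 CPM (-1.57) and the esterifying enzyme gene Soat1 from 582 to 178 CPM (-1.76), while Abca1 did not pass (-0.19, adjusted p = 0.198). Ch25h, which makes 25-hydroxycholesterol, rose from 0.274 to 21.6 CPM (6.26), and Nr1h3, the receptor LXR alpha, by 2.84. Of 19 LXR targets and partners 9 rose and 8 fell (6 and 12 with library size only), with a median of -0.19, or -0.03 without replicate 5.

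Antioxidant genes rose more often than they fell (22 of 31 higher, 7 lower, and 18 and 12 with library size only), led by the cystine transporter gene Slc7a11 at 0.785, 1.12 and 1.37 CPM in media and 89.2, 181 and 213 CPM with Pam3 (7.28), glutathione reductase, Gsr (3.68), and thioredoxin reductase, Txnrd1 (3.49). The peroxide-reducing Gpx1 fell from 608 to 277 CPM (-0.94). In the unfolded protein and integrated stress list 19 of 31 rose and 11 fell (15 and 13 with library size only), with the chaperone gene Hspa5 up by 1.17, Atf4 by 1.66, the phosphatase subunit Ppp1r15a by 3.96 and the kinase gene Eif2ak3 down by 1.17.

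**Figure D3:**
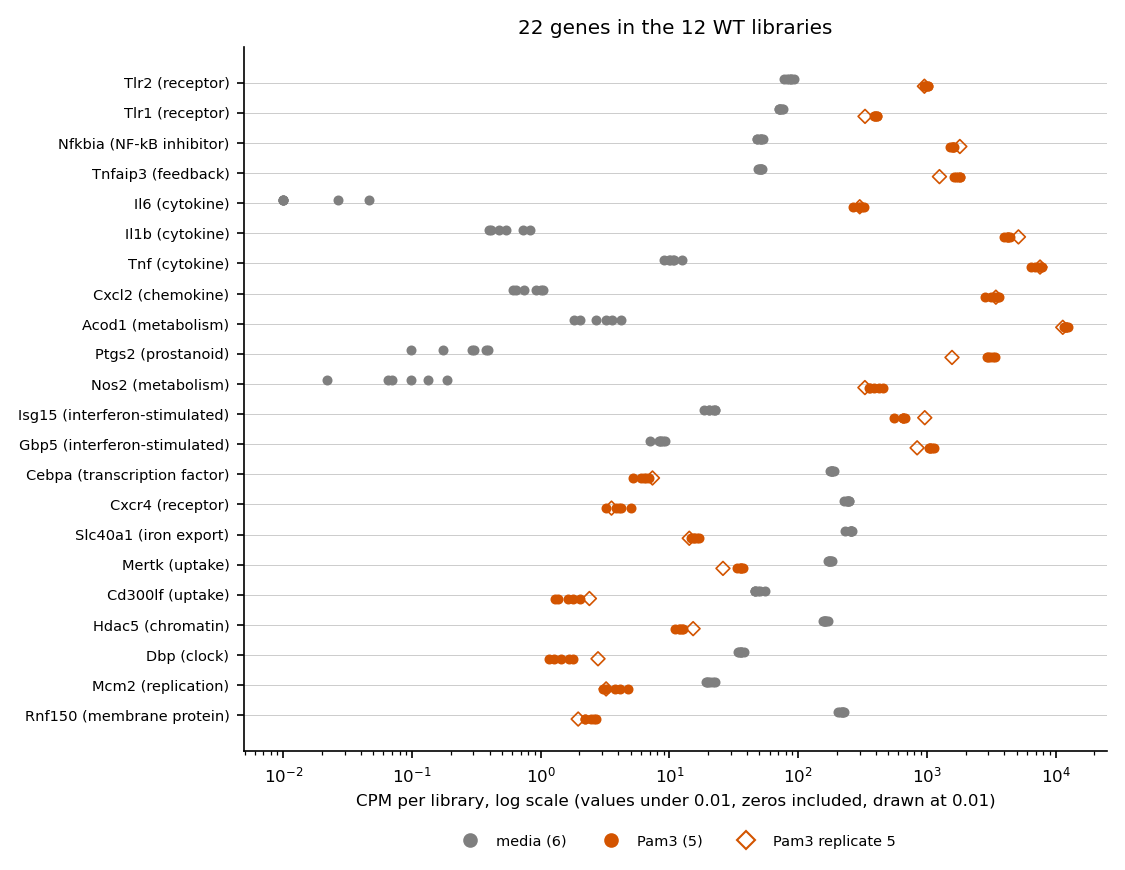
CPM of 22 genes (rows, with a role in brackets) in each of the 12 WT libraries on a log axis, grey for media, orange for Pam3, and an open diamond for WT_Pam3 replicate 5, with values under 0.01 drawn at 0.01. The groups do not overlap for any gene drawn, and replicate 5 lies below the other 5 Pam3 libraries for several, among them Ptgs2, Tnfaip3, Gbp5 and Mertk.

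Lineage transcription factors moved both ways, at shares near those of all genes: 14 of 33 rose and 15 fell (all genes 40.6% and 44.2%), or 12 and 19 with library size only. With TMM 11 of 33 rose and 10 fell at least 2-fold, against 18.2% and 25.1% of all genes. At this size the share of rises was above that of all genes. Cebpa, a master factor of myeloid differentiation, stood at 176, 184 and 191 CPM in media and 5.18, 6.42 and 7.38 CPM with Pam3 (log2 fold change -4.84, SE 0.073, adjusted p = 1.46e-28). Pparg, which governs lipid handling, stood at 61.8, 64.5 and 68.4 CPM in media and 6.18, 7.47 and 8.36 CPM with Pam3 (log2 fold change -3.12, SE 0.0651, adjusted p = 2.03e-25). In every Pam3 library these genes were below all media libraries. Others rose: the related factors Cebpb and Cebpd by 2.81 and 4.25, Tfec by 4.24, and Spi1, which encodes PU.1, by 1.76, while Maf did not pass (-0.06, adjusted p = 0.45).

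Macrophage identity genes were divided as well, with 14 of 31 higher and 17 lower (all genes 40.6% and 44.2%, and 10 and 19 with library size only, median -0.20). Cd14 stood at 263, 268 and 278 CPM in media and 2607, 2797 and 3588 CPM with Pam3 (3.43) and Adgre1 rose by 1.83. Csf1r fell by 0.61, Cd68 by 0.34, Trem2, a lipid-sensing receptor, by 1.1, the mannose receptor gene Mrc1 from 709 to 185 CPM (-1.96) and the haemoglobin scavenger receptor gene Cd163 from 5.09 to 0.831 CPM (-2.64).

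Receptors and bridging molecules for the uptake of apoptotic cells fell more often than they rose. Of 26, 15 were lower (all genes 44.2%), 12 of them at least 2-fold (all genes 25.1%), and 9 rose (all genes 40.6%). The median was -0.73, and with library size only 20 were lower and 6 higher. Mertk, the engulfment kinase, stood at 169, 176 and 185 CPM in media and 26, 35.5 and 37.3 CPM with Pam3 (log2 fold change -2.38, SE 0.0624, adjusted p = 4.38e-23), and its bridging ligand Gas6 at 1220.3, 1259 and 1291 CPM in media and 140.1, 155 and 180.2 CPM with Pam3 (log2 fold change -2.99, SE 0.0558, adjusted p = 1.67e-26). The CD300 receptors for phosphatidylserine and other lipids fell further, Cd300lf from 47.6 to 1.71 CPM (-4.8), Cd300lb from 439 to 22.5 CPM (-4.29) and Cd300a from 248 to 18.2 CPM (-3.77). The groups did not overlap for these 5 genes. Lrp1, a large endocytic receptor, stood at 1611, 2001 and 2540.4 CPM in media and 228, 396 and 433 CPM with Pam3 (-2.46), with the lowest value in replicate 5. The scramblase gene Xkr8 and the transglutaminase gene Tgm2 rose by 4.54 and 3.02, and the kinase gene Axl was near level at 0.27 with overlapping groups and at -0.26 with library size only.

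Scavenger and lectin receptors moved both ways (15 of 26 higher, 10 lower, and 10 and 12 with library size only). Marco, a scavenger receptor for bacteria, stood at 0.347, 0.673 and 0.785 CPM in media and 1746, 1836 and 2586 CPM with Pam3 (log2 fold change 11.66, SE 0.283, adjusted p = 6.73e-24), and the oxidized lipoprotein receptor gene Olr1 rose from 0.0546 to 14.7 CPM (7.43). Olr1 had a media median below 3 counts per library, so the size of its rise is uncertain. Clec10a, a galactose lectin of alternatively activated macrophages, fell from 67.7 to 2.67 CPM (-4.66), and Clec7a, the beta-glucan receptor Dectin-1, from 347 to 101 CPM (-1.81). Cd36 did not pass (adjusted p = 0.948, but -0.53 with library size only). Among Fc, TREM, CD300 and Siglec receptors 12 of 24 rose and 12 fell (10 and 13 with library size only). Siglece rose from 0.994 to 60.1 CPM (5.85), Pilra from 3.45 to 96.6 CPM (4.84) and Fcgr2b from 234 to 1004 CPM (2.11). Fcgr3 fell by 0.81, and the CD300 receptor genes Cd300lf and Cd300a fell further (-4.8 and -3.8).

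Lysosomal enzymes fell widely and by small steps. Of 45, 32 fell, 9 of them at least 2-fold (20% against 25.1% of all genes), and 8 rose (40 and 4 with library size only), with a median of -0.54. The largest fall was Sgsh, the heparan sulfate sulfamidase, at 179, 187 and 196 CPM in media and 2.15, 2.43 and 2.64 CPM with Pam3 (log2 fold change -6.3, SE 0.0625, adjusted p = 5.36e-32). The phospholipase gene Pla2g15 fell from 277 to 25 CPM (-3.44), the acid lipase gene Lipa from 2201 to 907 CPM (-1.28), and the abundant cathepsin genes Ctsd and Ctsb by 0.63 and 0.41. Rising enzymes were led by the acid phosphatase gene Acp5 (3.44) and cathepsin C, Ctsc (2.6, from 334 to 2002 CPM). For the lysosomal membrane 19 of 39 fell and 14 rose, near the shares of all genes (44.2% and 40.6%), or 28 and 5 with library size only. Members that fell included the amino acid transporter gene Slc36a1 at 125, 136 and 145 CPM in media and 15, 18.7 and 19.6 CPM with Pam3 (-2.9), the GTPase Rragd at -3.24 and the proton pump subunit Atp6v0d2 at -2.73. The lysosomal factor gene Tfeb is a lineage-list member outside the naming rule and was chosen after its values were seen: it fell by 2.40 on the log2 scale. Autophagy genes split into 16 lower and 11 higher of 30 (all genes 44.2% and 40.6%, and 21 and 6 with library size only), with the initiating kinase gene Ulk1 and the receptors Nbr1 and Calcoco1 down by 1.74, 2.03 and 2.65 and the receptors Sqstm1 and Optn up by 1.85 and 1.99.

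DNA replication was the list with the lowest median (-1.56): 37 of 42 fell, 32 at least 2-fold (all genes 25.1%), and 3 rose. The helicase subunit gene Mcm2 stood at 19.3, 20.5 and 22.7 CPM in media and 3.03, 3.48 and 4.76 CPM with Pam3 (log2 fold change -2.49, SE 0.0894, adjusted p = 6.14e-20), and the maintenance methyltransferase gene Dnmt1 at 102, 108 and 117 CPM in media and 18.8, 21.5 and 25 CPM with Pam3 (log2 fold change -2.32, SE 0.0503, adjusted p = 4.89e-25). All Pam3 libraries were below all media libraries for these genes. Brca1, Cdc6 and Rrm2 fell by 3.32, 3.25 and 2.39. Of 42 cell cycle genes 31 fell and 8 rose (median -0.70). The cyclin gene Ccnd1 fell from 68.5 to 3.08 CPM (-4.4) and E2f2 from 11.9 to 0.354 CPM (-5.03). Against these, the kinase inhibitor gene Cdkn1a, or p21, stood at 90.2, 101 and 106 CPM in media and 1866, 2288 and 2341 CPM with Pam3 (4.46), Ccnd2 rose by 3.38, and the proliferation marker Mki67 rose from 31.4 to 163 CPM (2.29) while Top2a fell by 0.54 with overlapping groups. With Cdkn1a as its most abundant member, the list as a whole took more reads with Pam3 (0.217% to 0.247%) than in media (0.107% to 0.115%).

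Ribosome biogenesis and splicing rose by moderate amounts. Of 40 biogenesis genes 35 rose, 26 at least 2-fold, and 2 fell (31 and 5 with library size only, median 1.15), with Rcl1, Wdr43 and Nop58, factors of pre-rRNA processing, at 2.37, 1.84 and 1.64. Of 41 splicing genes 35 rose and 6 fell (22 and 11 with library size only, median 0.68), with Srsf3 at 1.45 and Tra2b at 1.45. Chromatin enzymes were mixed (15 of 47 higher, 25 lower, and 11 and 34 with library size only). The deacetylase gene Hdac5 stood at 156, 163 and 171 CPM in media and 11.1, 12.2 and 15.3 CPM with Pam3 (log2 fold change -3.7, SE 0.0563, adjusted p = 1.78e-28), Kdm2b fell by 1.93, and the demethylase genes Kdm4a and Kdm6b rose by 2.28 and 1.1. Clock genes mostly fell (13 of 18 lower, 4 higher, and 15 and 1 with library size only, median -0.99). The output factor gene Dbp stood at 33.9, 36 and 38 CPM in media and 1.15, 1.55 and 2.79 CPM with Pam3 (log2 fold change -4.42, SE 0.115, adjusted p = 3.72e-23), the repressor Nr1d1 fell from 6.97 to 1.18 CPM (-2.6), Per3 by 2.17 and the core activator Arntl by 0.89, while Cry1 rose by 1.46.

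Receptors for migration moved both ways. Cxcr4, the marrow retention receptor, stood at 229, 243 and 248 CPM in media and 3.2, 3.96 and 5.01 CPM with Pam3 (log2 fold change -5.92, SE 0.081, adjusted p = 1.88e-29), and Ccr2, the monocyte receptor for CCL2, at 144, 166 and 168 CPM in media and 4.99, 6.83 and 7.46 CPM with Pam3 (log2 fold change -4.58, SE 0.0824, adjusted p = 7.61e-27). Formyl peptide receptor genes rose, Fpr2 from 0.478 to 222 CPM (8.98) and Fpr1 from 0.506 to 183 CPM (8.49), and so did Ccr7, the lymph node receptor (3.59), and Ccrl2 (5.76). Of 17 such receptors 8 rose and 8 fell, against 7 and 10 with library size only. For purines, lipids and metabolites 14 of 36 receptors rose and 20 fell. The adenosine receptor gene Adora2a stood at 0.348, 0.557 and 0.742 CPM in media and 278, 317 and 329 CPM with Pam3 (log2 fold change 9.12, SE 0.105, adjusted p = 5.49e-31), and Gpr84, a fatty acid receptor, rose from 1.62 to 528 CPM (8.34). Falls included Gpr34 from 32.5 to 0.47 CPM (-6.19), the ectonucleotidase gene Entpd1 from 333 to 31.2 CPM (-3.41) and P2ry12 by 3.01.

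Of 44 cytokine and growth factor receptors 23 rose and 19 fell (all genes 40.6% and 44.2%, and 17 and 22 with library size only). The IL-6 receptor gene Il6ra stood at 254, 264 and 272 CPM in media and 18.8, 24.8 and 26.7 CPM with Pam3 (log2 fold change -3.45, SE 0.0599, adjusted p = 3.37e-27), in contrast to its ligand, and Il7r fell from 251 to 35.2 CPM (-2.86). Il2ra, Tnfrsf9 and Met, receptors for IL-2, 4-1BB ligand and HGF, rose by 5.07, 6.26 and 4.95. Among integrins and adhesion molecules 20 of 31 rose and 10 fell: Icam1 stood at 74.5, 79.4 and 84.1 CPM in media and 2370.1, 2615 and 2723 CPM with Pam3 (5.03), Itgal rose from 28.2 to 1192 CPM (5.25) and Itga5 from 94.3 to 1195 CPM (3.66), and the laminin-binding Itga6 fell from 181 to 13.8 CPM (-3.76). Of 33 matrix proteases and inhibitors 19 rose and 13 fell, with Mmp14 at 4.06, 4.56 and 4.91 CPM in media and 1348, 1378 and 1422 CPM with Pam3 (8.24), Mmp13 and Mmp9 higher by 5.94 and 4.63, and Adam8 lower by 2.11. For small GTPases and actin regulators 29 of 38 rose and 7 fell (23 and 12 with library size only), led by the actin bundler gene Fscn1, from 2.35 to 183 CPM (6.22), and Marcksl1, from 17.5 to 1019 CPM (5.91). Solute carriers had 25 of 37 higher and 11 lower, from Slc13a3, a dicarboxylate transporter, at 1.36, 1.58 and 1.95 CPM in media and 819, 877 and 969 CPM with Pam3 (9.1) to Slc46a3, a lysosomal transporter, at 122, 132 and 134 CPM in media and 1.44, 1.77 and 2.15 CPM with Pam3 (-6.22).

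**Figure D4:**
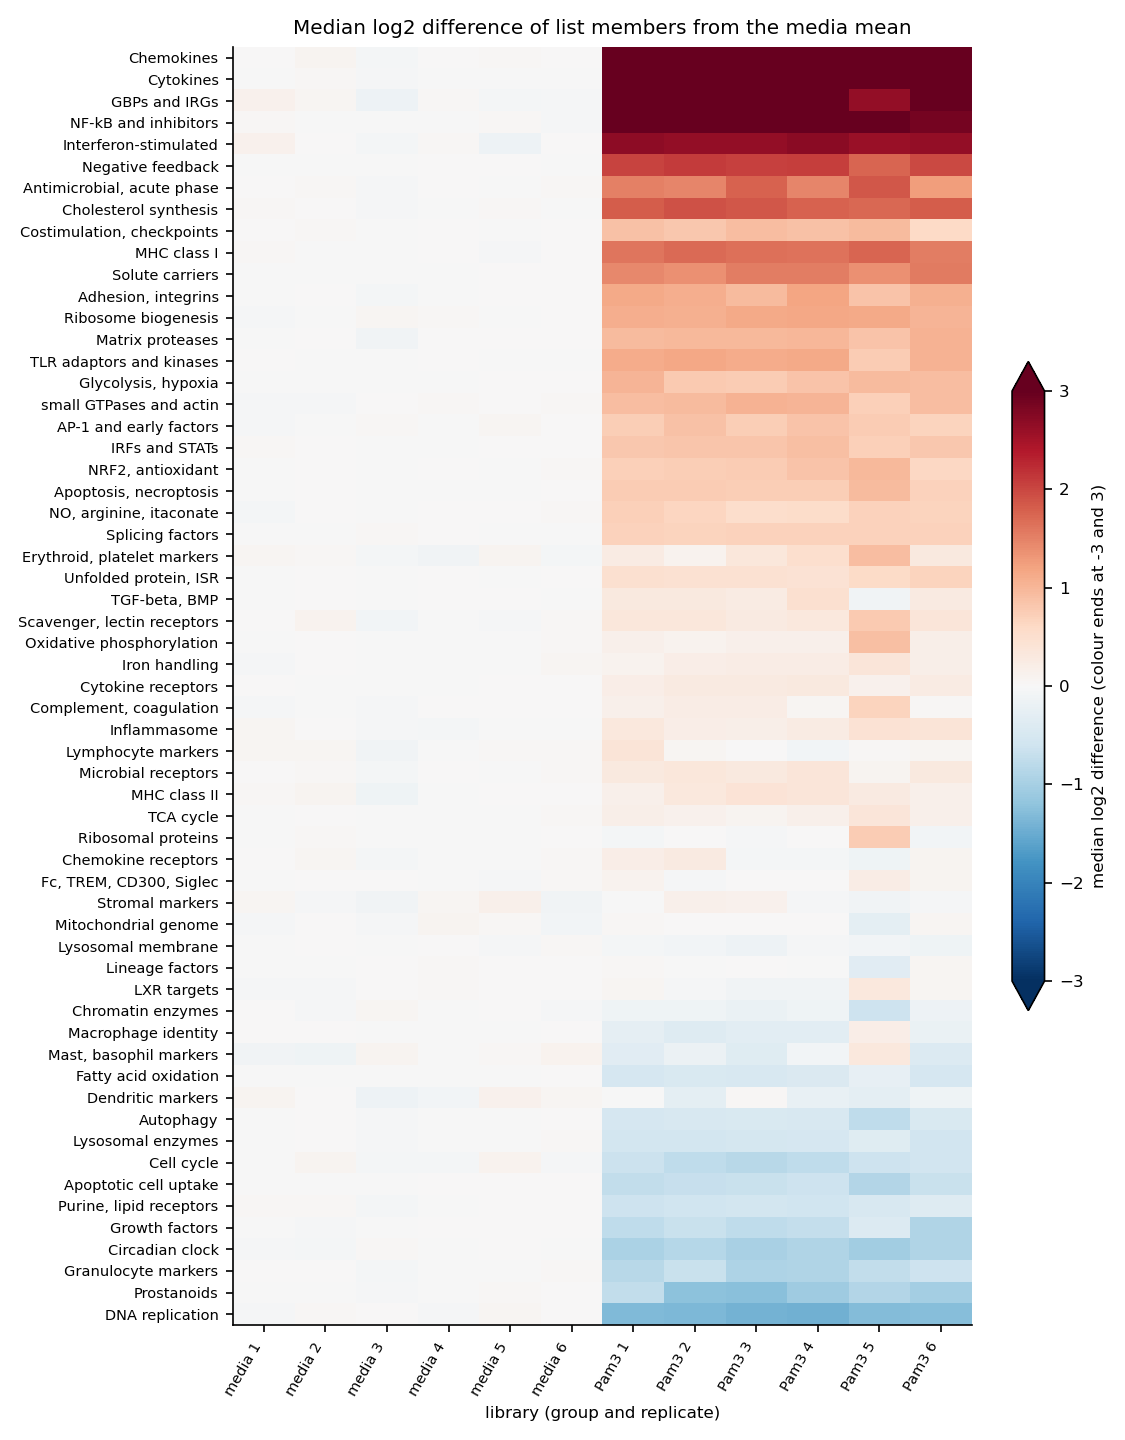
Median log2 difference of each list's tested members from the media mean (colour) in each of the 12 WT libraries (columns), with lists in the order of their median log2 fold change. The 6 Pam3 columns carry the same sign for the lists at either end, and WT_Pam3 replicate 5 lies above the other 5 for ribosomal proteins (0.75) and oxidative phosphorylation (0.89).

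Over all genes, the largest rises by the naming rule began with Shisa3, a membrane adaptor, which had no counts in media and stood at 196, 255 and 272 CPM with Pam3, at least 3097-fold higher than the 3 counts per library that were taken as the limit of detection (0.0803 CPM). Next in size were Il6, Ptgs2, Il1b, Csf3 and Mir155hg, the host transcript of miR-155, which had 1 count in media and 29.3, 37.1 and 39 CPM with Pam3. Lad1, an anchoring filament protein, and Edn1, the endothelin precursor, rose from 0.0959 to 232 CPM (11.09) and from 0.102 to 265 CPM (11.07). The largest falls among genes with counts in both conditions included Fam214a at 82.2, 86.6 and 93.4 CPM in media and 0.217, 0.333 and 0.572 CPM with Pam3 (log2 fold change -7.89, SE 0.105, adjusted p = 1.02e-29), Rnf150, a RING finger membrane protein, at 206, 219 and 226 CPM in media and 1.95, 2.34 and 2.71 CPM with Pam3 (log2 fold change -6.52, SE 0.0745, adjusted p = 4.76e-31), Rasgrp3, an activator of Ras and Rap, from 155 to 1.42 CPM (-6.95), the peroxisomal transporter gene Abcd2 from 34.8 to 0.229 CPM (-7.18), the cannabinoid receptor gene Cnr2 from 50.5 to 0.415 CPM (-6.83) and the organic anion transporter gene Slco2b1 from 60.2 to 0.568 CPM (-6.7). Slc25a27, Smim10l2a and Fam227a had no counts with Pam3, which puts them at least 11.9-fold, 11.2-fold and 5.43-fold lower than in media. On build GRCm38, Shisa3 lies at chr5:67607882-67623552, Acod1 at chr14:103046977-103056573, Rnf150 at chr8:82863356-83091268 and Fam214a at chr9:74952884-75032468.

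In absolute terms Acod1, Fth1, Tnf, Saa3, Ccl3, Clec4e, Tmsb4x, Ccl9, Tnfrsf1b and Cybb gained the most CPM. Selenop, a selenium transport protein, at 9453, 10028 and 11023 CPM in media and 3386, 3726 and 3917 CPM with Pam3 (-1.45), lost the most, followed by the sphingolipid activator gene Psap, Ctsb, Gpnmb, Ctsd, Lgals3, Lrp1, Itm2b, Stab1 and Lipa. Per length, the authors' RPKM (reads scaled to transcript length and library size, adjusted by a size factor) were highest for Lyz2, Fth1 and Psap in media (medians 13030, 6398 and 6312) and for Fth1, Lyz2 and Ccl3 with Pam3 (17230, 14540 and 7618). Ccl3 stood at 70.9 RPKM in media, Ccl5, the fifth with Pam3, at 11.3 against 4266, and Acod1, the eighth, at 0.998 against 4180.

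Markers of other cell types did not move together. The granulocyte markers that rose were Lcn2, Camp (1.96) and Csf3r (1.86), and those that fell included the granule genes Ltf from 6.77 to 0.584 CPM (-3.36), Mpo from 4.85 to 0.835 CPM (-2.62) and Elane from 1.48 to 0.224 CPM (-2.85), while S100a8 did not pass (0.10, adjusted p = 0.246, and -0.42 with library size only). In the lymphocyte list 5 of 10 rose and 4 fell (3 and 4 with library size only). Cd4 fell from 38.8 to 11.6 CPM (-1.74) and Cd8a rose from 0.0116 to 1.36 CPM (5.25). Too low to test were 12 of 22 members, among them Cd3d, Cd3e, Cd3g, Trac and Trbc2. Outside the list, the T cell receptor segment gene Trav13-4-dv7 was tested and fell from a mean of 2.43 to 0.08 CPM (-4.86). The media median of Cd8a lay below 3 counts per library, so the size of its rise is uncertain. Of the dendritic cell markers 4 of 11 rose and 5 fell, of the mast cell and basophil markers 1 of 5 rose and 2 fell (3 without replicate 5), and of the erythroid and megakaryocyte markers 3 of 7 rose and 1 fell (1 and 1 with library size only). Stromal genes had 5 of 17 higher and 2 lower (1 lower without replicate 5, and 3 higher and 9 lower with library size only), with Pdgfrb from 1.5 to 84.9 CPM (5.75) and the collagen genes Col3a1 and Col1a1 not passing (-0.30 for Col1a1, and near 0 for Col3a1 or -0.52 with library size only). Il7r and Cd4 took most of the lymphocyte share in media. The part of other cells in the results above was not tested.

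Macrophages labelled as knockouts of Ninj1, whose product takes part in rupturing the membrane of dying cells, gave the same contrast in 12 libraries that share none with WT. Ninj1 itself stood at 289, 308 and 325 CPM in WT media, 646, 785 and 1145 CPM in WT with Pam3, 151, 167 and 179 CPM in KO media and 409, 420.5 and 479 CPM in KO with Pam3. Within each condition all KO libraries lay below all WT libraries, but the transcript was not absent, and counts over the whole gene do not show which part was deleted. Of the 5859 genes higher in WT 5482 (93.6%) were called higher in KO, and of the 6376 lower 6059 (95%) were called lower. Among genes at least 2-fold changed in WT the shares were 99.5% and 99.1%. The response itself differed between genotypes for 112 genes (0.776%, interaction test, adjusted p under 0.05), above 0 for 87 and below for 25, and at least 2-fold for 7. Without WT_Pam3 replicate 5 that count was 454. Il1a rose by less in WT (8.97) than in KO (9.7, interaction -0.73, SE 0.177, adjusted p = 0.0454). Dio2, the deiodinase that activates thyroid hormone, and Gpr155 fell by more in WT (-3.07 against -2.28, adjusted p = 0.00868, and -6.5 against -5.74, adjusted p = 0.0201). The interferon-stimulated Ifit3, Tgtp2 and Ifi206 rose by more in WT, by 2.26, 3.83 and 2.54 against 1.08, 2.71 and 1.5 (adjusted p = 0.0208, 0.0268 and 0.037). Their paralogs make these values uncertain. The fall of Cd101, an inhibitory receptor, was smaller in WT (-1.91 against -3.26, adjusted p = 0.0381).

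**Figure D5:**
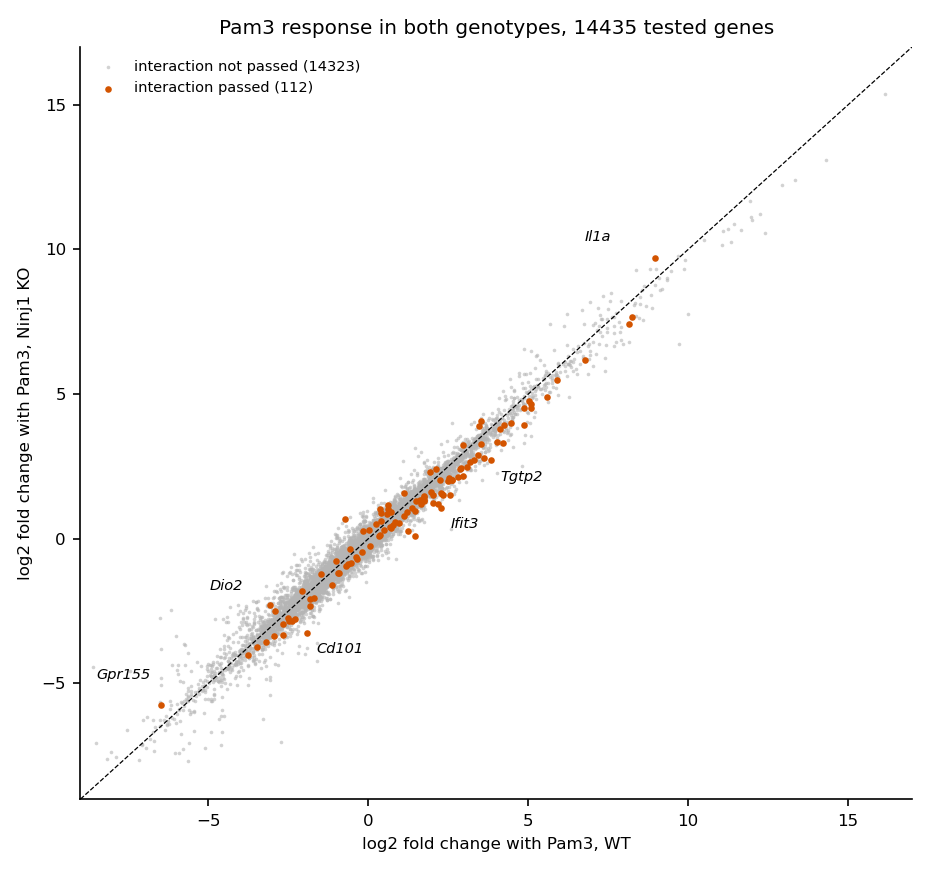
Fitted log2 fold change with Pam3 in WT (horizontal axis) and in Ninj1 KO macrophages (vertical axis), 1 point per tested gene, with the 112 genes that passed the interaction test in orange and equality as a dashed line. Points run along the line from the most repressed to the most induced genes, and Ifit3 and Tgtp2 lie below it.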

How the data were processed

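Poly(A) RNA-seq libraries were compared at the level of gene models. Per the file headers, the authors deposited for each library a count of reads aligned uniquely to each gene model, without normalization, and an RPKM adjusted by a size factor. GSNAP and build GRCm38 are named per the submitters' processing notes. GENCODE M21 gave symbols to 52489 of 52636 gene models, and the 147 others held 0.00387% of reads. Reads shared by paralogs or pseudogenes are lost by unique counting (Gapdh was too low to test), and the library kit does not mark strand, so overlapping and antisense genes cannot be told apart.

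All 24 libraries were fitted together with edgeR 4.0.16 (R 4.3.3; filterByExpr, TMM, robust quasi-likelihood test, 1 mean per group), with Benjamini-Hochberg adjustment over 14435 genes at 0.05. The biological coefficient of variation was 8.21%. The code was tested on simulated data. Alternatives were RLE, upper-quartile and library size scaling, no filter or a 1 CPM filter, DESeq2 1.42.0, limma-voom (limma 3.58.1), WT libraries alone, a test against a 2-fold change, a 4-fold threshold and leaving out each replicate. Depth of 31302011 to 40663152 reads puts 3 counts at 0.0627 to 0.111 CPM, and intervals cover counting error only.

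The 59 lists (1521 distinct genes tested, 86 too low, 1 symbol not found) and the comparison were chosen with earlier results of these data known. Named genes were key members, in each list up to 4 smallest adjusted p, 3 largest rises and 3 largest falls, over all genes the 15 largest rises and falls, the 10 largest CPM gains and losses, the 5 largest interactions each way, the 8 highest RPKM per group, members of long neighbour runs and genes whose promoters are shown. Results of a few genes are not reported here.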

Additional observations from a re-analysis of the deposited data

Results flagged for a closer look

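WT_Pam3 replicate 5 lay apart from the other 5 libraries of its group in 2 library measures, each with a gap to the nearest library that took most of the group's range. Its 10 most abundant genes held 12.16% of reads, and its mitochondrial transcripts held 0.3357% of reads. The rule behind these flags has a nominal rate of about 1 in 20 groups set apart by chance, which was not worked out for these 2 values. What set the library apart was not tested.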

How the results depend on the processing

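The counts of genes higher and lower stayed within 1.5 times (4954 to 6148 and 5615 to 7730) under the alternatives other than library size only and left-out replicates, as did those at least 2-fold higher and lower (2162 to 3164 and 2996 to 5024) apart from the 4-fold threshold. Library size only gave 3583 genes higher and 1598 at least 2-fold higher, and a 4-fold threshold gave 1097 higher and 1586 lower. With each replicate left out, 5755 to 5974 genes were higher, 6351 to 6646 lower, 2607 to 2654 at least 2-fold higher and 3665 to 3735 at least 2-fold lower. The interaction count was 454 without WT_Pam3 replicate 5, and the cause was not tested. Fitted alone, the KO called 5486 of the risers and 5881 of the fallers.

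Library size only, which applies no further factors and shifted genes downward, turned the medians of iron (-0.24), scavenger and lectin receptors (-0.10), oxidative phosphorylation (-0.21), TGF-beta and BMP (-0.092), cytokine receptors (-0.25), receptors of microbial ligands (-0.31), chemokine receptors (-0.40), complement (-0.28), inflammasome (-0.30), class II presentation (-0.32), Fc and related receptors (-0.45), the TCA cycle (-0.34), ribosomal proteins (-0.39), mitochondrial transcripts (-0.52) and the lymphocyte (-0.31) and stromal (-0.50) markers from above to below 0, and a 1 CPM filter, which tests fewer genes, turned the dendritic markers (0.037). Upper-quartile scaling turned some of these medians below 0 too. They were Fc and related receptors (-0.12), chemokine receptors (-0.071), ribosomal proteins (-0.062), the TCA cycle (-0.008), mitochondrial transcripts (-0.195) and the stromal markers (-0.17). Library size only also turned Traf6 (-0.22), Atf3 (-0.38), Mpeg1 (-0.37), Lyz2 (-0.34), Ftl1 (-0.28), C1qa (-0.33), C1qb (-0.30), H2-D1 (-0.17), Axl (-0.26), Fcgr4 (-0.17), Atg5 (-0.38), Cox4i1 (-0.20), Srebf1 (-0.21), Rplp0 (-0.26), Srsf1 (-0.24), Kdm1a (-0.32), Ptafr (-0.28), Rac1 (-0.27), Il4ra (-0.25), Rfc3 (-0.25) and Csnk1d (-0.18). Over the 798 named genes, 111 values for 51 genes no longer passed, 66 for 28 genes newly passed, and 15696 kept direction and call. No paired analysis was possible because the labels give no replicate numbers, animals or batches. Genes under about 3 counts per library could not be measured at this depth.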

Other observations

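With TMM scaling, long noncoding RNAs and pseudogenes moved in opposite directions. Of 782 lncRNA genes tested 353 (45.1%) were at least 2-fold lower and 108 (13.8%) at least 2-fold higher, with a median log2 fold change of -0.79. Of 1272 pseudogenes 112 (8.81%) were at least 2-fold lower and 317 (24.9%) higher, with a median of 0.44. Library size only shifted all tested genes by a median of -0.52, which is larger in size than that pseudogene median. The values by gene type were not worked out with that scaling. Protein-coding genes stood between, with 3080 of 12109 lower (25.4%) and 2152 higher (17.8%). Pseudogene counts are uncertain, because reads that also fit the parent gene were not counted. Protein-coding genes at least 4-fold higher had a median of 7 exons, a transcript of 3251 nucleotides and a span of 23.4 kb, those at least 4-fold lower 8 exons, 3642 nucleotides and 27.8 kb, and all tested 8, 3418 and 24 kb.

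Some genes that changed at least 2-fold lay in runs of neighbours with the same direction. There were 65 runs of at least 4 consecutive tested genes that were all at least 2-fold higher (300 genes) and 110 runs lower (507 genes), with no comparison to chance. A run of 9 higher genes on chr11:80383279-82446332 held the chemokine genes Ccl2, Ccl7, Ccl12 and Ccl8, a run of 6 on chr5:90772435-91761575 held Pf4, Cxcl3, Cxcl1 and Cxcl2, and a run of 6 on chr17:35165119-35205351 held Ltb, Tnf and Lta. Lower runs included 8 genes on chr11:115091431-115396132 with Cd300lf, 7 genes on chr11:113776374-114969157 with Cd300a, Cd300lb and Cd300c, and 7 zinc finger genes from Zfp235 to Zfp94 on chr7:24134169-24316666 (GRCm38).

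Of 17 growth factors 7 rose and 10 fell (all genes 40.6% and 44.2%), with a median of -0.86. The vasoconstrictor gene Edn1 and the activin subunit gene Inhba rose by 11.07 and 4.33, the stress cytokine gene Gdf15 from 20.1 to 331 CPM (4.03) and Tgfb1 by 0.83. The platelet-derived factor gene Pdgfc fell from 54.4 to 5.6 CPM (-3.25), the hepatocyte growth factor gene Hgf from 37 to 7.5 CPM (-2.32) and Igf1 from 512 to 249.6 CPM (-1.06). In the TGF-beta and BMP pathway 17 of 31 genes rose and 12 fell, against 12 and 15 with library size only.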
